A study of Mus musculus with 6 samples.

Results

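The TAM receptors and their ligands are a family of 6 genes that were followed across bone marrow monocytes (BMDM) and brainstem microglia (BSM) of the mouse. The members were chosen by name: the receptor genes Mertk, Axl and Tyro3, the ligand genes Gas6 and Pros1, and the bridging gene Mfge8. All 6 were found by symbol among the 35237 genes of the Cufflinks table and among the 36536 entries of the ALEXA-Seq table. Both tables were made from the same 6 RNA-Seq libraries, 3 from BMDM and 3 from BSM.

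All libraries came from C57BL/6 mice at 6 weeks of age, and each was made from a separately collected set of pooled animals, so a value describes a pool and not 1 mouse. No treatment or genetic change was applied to either cell type. BMDM were sorted from bone marrow as CD11b+ CD45high CD115+ Ly6G- cells, and BSM from brainstem as CD11b+ CD45low CD115low Ly6G- cells. BMDM here are freshly sorted marrow monocytes, not macrophages grown in culture. Replicate 1 of each cell type was male and replicates 2 and 3 were female, so the sexes were balanced between the groups. The tissue of origin, the sort gate and the cell type changed together and cannot be told apart.

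Mertk, Axl and Tyro3 are receptor tyrosine kinases whose outer part carries immunoglobulin-like and fibronectin-like domains. They do not bind dying cells directly. Gas6 and protein S (the product of Pros1) are secreted proteins that attach to exposed phosphatidylserine on a dying cell through a vitamin K-dependent domain and bind the receptor with their other end. Gas6 binds all members of the receptor family, whereas protein S acts on Tyro3 and Mertk. Mfge8 joins phosphatidylserine to integrins instead, and is a companion of the system and not a TAM ligand. Macrophages use these receptors to engulf apoptotic cells and to dampen innate immune signalling, and microglia are known to use Mertk for clearing apoptotic cells.

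The libraries matched their labels by the markers of their cell types. The summed FPKM (fragments scaled by transcript length and by mapped reads) of the 5 monocyte markers Ccr2, Ly6c2, Vcan, F13a1 and Clec12a was 334 to 383 in BMDM and 1.09 to 1.56 in BSM. The 5 microglia markers P2ry12, Tmem119, Sall1, Olfml3 and Cx3cr1 summed to 6.62 to 7.85 in BMDM and 328 to 385 in BSM. A pair of libraries stood apart. BSM replicate 1, for which the study's quality table gives very poor RNA integrity, listed 472 of the 6364 tested genes at 0 against 51 to 115 in the other 5 libraries. Its log2(FPKM + 1) correlated with BSM replicates 2 and 3 at 0.80 and 0.79 across genes, against 0.97 between those replicates (genes are not independent replicates). BMDM replicate 2 held the most signal of other marrow cells, with granulocyte markers summing to 328 against 46.0 and 83.2 FPKM in BMDM replicates 1 and 3. The sum of all FPKM was 163199 to 194184 in BMDM but 68288 to 75021 in BSM, and the median tested gene was lower in BSM by 0.81 on the log2 scale. That median was -0.02 once the libraries were quantile normalized and 0.23 once they were brought to the same sum.

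In these libraries Mertk and Pros1 were high in BSM, Gas6 was low but detected in BSM, and Axl was the leading receptor transcript of BMDM at a low level. Tyro3 and Mfge8 lay near or at 0 in both cell types. The test was limited to genes that reached 3 FPKM in some library, which 3 of the 6 members did: 1 receptor (Mertk) and 2 ligands (Pros1 and Gas6). All 3 were higher in BSM in limma at a Benjamini-Hochberg adjusted p under 0.05, where 9.22% of the 6364 tested genes were called in that direction and 54.5% in either direction. Mertk and Gas6 passed the minimum only through their BSM libraries, so a difference was built into their selection and the count of 3 is a description. Every BSM library lay above every BMDM library for these 3 genes, as for 11.6% of all tested genes. The same 3 members were called in the ALEXA-Seq table, where 10.9% of 6364 tested genes were called higher in BSM. The 2 tables share their reads and are not independent.

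**Figure D1:**
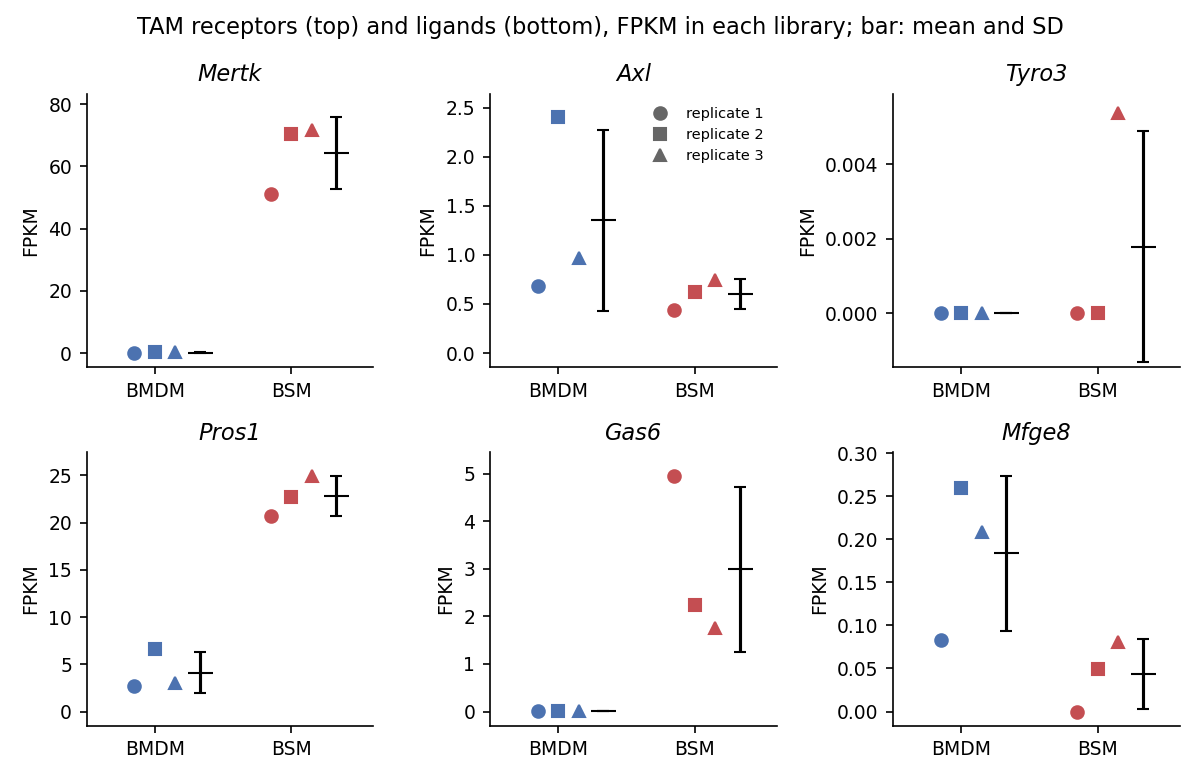
Expression of the 6 TAM genes (y axis, FPKM, a separate scale for each gene) in the 3 BMDM (blue) and 3 BSM (red) libraries. Points are libraries, with the symbol giving the replicate, and the horizontal mark with its bar is the mean with the SD (n = 3). Mertk, Pros1 and Gas6 showed every BSM library above every BMDM library, Axl overlapped, and Tyro3 was above 0 in 1 library only.

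The 3 genes higher in BSM are shown by the 250 bases before their RefSeq start (build GRCm38.p6, gene strand, 5′ to 3′), to let their start regions be compared. Capitals mark GC boxes (GGGCGG, or CCGCCC where the box lies on the other strand), the binding element of Sp1-type factors. The windows lie at chr2:128698665-128698914 on the plus strand (Mertk), chr16:62854057-62854306 on the plus strand (Pros1) and chr8:13494536-13494785 on the minus strand (Gas6).
Mertk: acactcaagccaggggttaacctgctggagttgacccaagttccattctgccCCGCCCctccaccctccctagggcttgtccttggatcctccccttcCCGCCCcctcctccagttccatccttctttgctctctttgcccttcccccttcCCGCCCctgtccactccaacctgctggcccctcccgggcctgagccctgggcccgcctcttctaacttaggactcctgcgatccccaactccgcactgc
Pros1: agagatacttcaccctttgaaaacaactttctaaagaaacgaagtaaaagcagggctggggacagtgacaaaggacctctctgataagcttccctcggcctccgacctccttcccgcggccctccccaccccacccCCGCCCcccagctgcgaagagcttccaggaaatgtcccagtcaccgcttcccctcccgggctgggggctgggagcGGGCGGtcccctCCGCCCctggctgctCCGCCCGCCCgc
Gas6: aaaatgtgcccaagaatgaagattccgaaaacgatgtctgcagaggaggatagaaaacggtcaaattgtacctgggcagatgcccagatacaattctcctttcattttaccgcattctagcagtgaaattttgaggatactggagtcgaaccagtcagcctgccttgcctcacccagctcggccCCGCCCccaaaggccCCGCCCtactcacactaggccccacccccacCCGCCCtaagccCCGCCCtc
The window of Mertk held 3 GC boxes, that of Pros1 held 5 (with 2 of them overlapping at the start) and that of Gas6 held 4. All boxes of Mertk and Gas6 lay on the other strand. In Mertk they lay far from the start, the nearest ending 94 bases before it, whereas in Gas6 the farthest began 66 bases before the start. The other 3 members also held the element in the same window, with 3 boxes in Tyro3, 1 in Axl and 4 in Mfge8. At least 1 GC box in either orientation was present in 32.7% of the 32851 RefSeq promoters of this length, and in 6 of 6 members, whether they were high in BSM or not. The GC content of the windows was 63.6% for Mertk, 64.4% for Pros1 and 54.8% for Gas6, and 60% for Axl, 73.2% for Tyro3 and 65.2% for Mfge8, against a median of 52.4% over all promoters. No other motif that was searched was present in any of the 6 windows. These were, on both strands, the ETS core GGAAGT bound by PU.1 (present in 19.7% of all promoters), the ETS-IRF composite (GGAA and GAAA with 2 bases between them, 2.30%), the MEF2 element (CTA and TAG with 4 bases between them, 3.20%), the nuclear receptor half-site AGGTCA (14.0%), the CCAAT box (33.8%), the TATA box TATAAA (12.4%) and the E-box CACGTG (6.02%). A match is a stretch of letters and not a measured site.

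**Figure D2:**
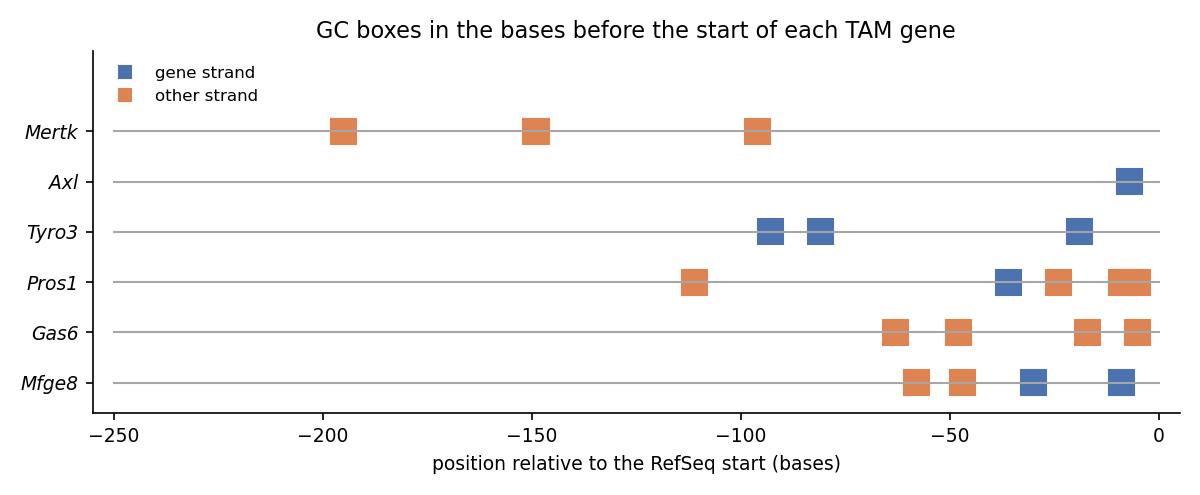
Positions of GC boxes (x axis, bases relative to the RefSeq start) in the 250 bases before each TAM gene, blue on the gene strand and orange on the other strand. All 6 genes have at least 1 box, and those of Mertk lie farther from the start than those of Gas6, Axl or Mfge8.

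Mertk is a main receptor by which macrophages engulf apoptotic cells. The files place it at chr2:128524692-128628630 of mm9 (ENSMUSG00000014361). Its FPKM was 0.0224, 0.228 and 0.212 in BMDM replicates 1 to 3 and 51.0, 70.4 and 71.5 in BSM replicates 1 to 3. The BMDM mean was 0.154 ± 0.115 (SD, n = 3) and the BSM mean 64.3 ± 11.5 (SD, n = 3), a ratio of 417, and the lowest BSM library was 223 times the highest BMDM library. All BSM libraries were high, with replicate 1 the lowest of them, and all BMDM libraries were under 0.3 FPKM. The log2 fold change (BSM minus BMDM, on log2(FPKM + 1), which understates the change of low genes) was 5.81 with a standard error of 0.24 and an adjusted p of 2.93e-06 from limma. Among all genes of the table Mertk ranked 177, 109 and 99 by FPKM in BSM replicates 1 to 3, and 14461, 10749 and 10986 in the BMDM libraries. In such bulk samples fewer cells that express a gene and less RNA per cell cannot be told apart.

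The ALEXA-Seq value of Mertk, a linear signal whose unit is not named in the sources used here, was 0.542, 2.81 and 2.38 in the BMDM libraries and 834, 1085 and 1067 in the BSM libraries. The groups were as far apart here, with a ratio of means of 521. The log2 fold change was 8.51 with a standard error of 0.41 (limma adjusted p = 3.19e-05). Without BSM replicate 1 the log2 fold change of Mertk was 5.97 in FPKM and 8.64 in ALEXA-Seq, so the difference was as large without the low-integrity library. The female libraries alone, an alternative chosen after the values were seen, gave 5.88 in FPKM (limma adjusted p = 9.09e-05).

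The study measured Mertk by qPCR with a primer pair whose position on the transcript shows which exons that assay covered. On the transcript Mertk-201 of GENCODE M21 (4302 bases in 19 exons) the forward primer matched bases 740 to 762 in exon 4, and the reverse primer, whose capitals mark the bases in exon 5, matched bases 823 to 846 across the junction of exons 4 and 5.
Forward primer: gccctcctgagcccgtcaatatc
Reverse primer: TGTCTCTGTCAGACcaggtacggt
The product would be 107 bases long and the reverse primer cannot anneal whole to genomic DNA, since the intron splits its site. The qPCR values were not analysed here. In GENCODE M21 the locus of Mertk overlaps the antisense gene Gm14011 over 2435 bases and the small nucleolar RNA gene Gm23172 over 124 bases. Whether reads were counted by strand is not given in the sources used here, so reads of Mertk and of its antisense partner cannot be told apart in the overlap.

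Axl is the receptor that binds Gas6 but not protein S, and in macrophages it is known to be induced by interferon. It lies at chr7:26542292-26573724 of mm9 (ENSMUSG00000002602). Its FPKM was 0.681, 2.40 and 0.969 in BMDM replicates 1 to 3 and 0.443, 0.621 and 0.747 in BSM replicates 1 to 3. BMDM replicate 2 was the highest library and the groups overlapped, since BSM replicate 3 lay above BMDM replicate 1. The BMDM mean was 1.35 ± 0.922 (SD, n = 3) and the BSM mean 0.604 ± 0.153 (SD, n = 3) (exact two-sided permutation p = 0.2, where 0.1 is the smallest that 3 against 3 libraries allow). No library reached the FPKM minimum for the test. In limma over all 21167 genes above 0, where 18.3% were called, the log2 fold change was -0.49 with a standard error of 0.32 (adjusted p = 0.371). Its sign depended on the scaling, as it was -0.01 with quantile normalization and 0.13 with every library brought to the same sum (limma adjusted p = 0.986 and 0.779). The ALEXA-Seq values overlapped as well, at 6.80, 9.99 and 10.5 in BMDM and 6.18, 5.58 and 9.0 in BSM.

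Tyro3, the receptor best known from neurons, lies at chr2:119623469-119643840 of mm9 (ENSMUSG00000027298). It was listed at 0 FPKM in 5 of the 6 libraries, and at 0.00537 in BSM replicate 3. The ALEXA-Seq table listed it at 0 in every BMDM library and in BSM replicate 1, and at 0.0226 and 0.0574 in BSM replicates 2 and 3. No fold is given against a group at 0. The reads behind a value are not known from these tables, so Tyro3 was not detectable, or barely so, at this depth. Neuron markers were also low, with a sum of 0 to 0.249 FPKM over the 4 of 6 that are in the table.

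The receptor make-up of a library does not depend on how libraries are scaled to each other, and FPKM can be compared between genes since it is given per length. Of the summed FPKM of the 3 receptors, Mertk made up 3.19%, 8.68% and 18.0% in BMDM replicates 1 to 3 and 99.1%, 99.1% and 99.0% in BSM replicates 1 to 3. Axl made up nearly all of the rest, and in BMDM it was the major receptor transcript in every library. The mean share of Mertk came to 9.95% ± 7.47 (SD, n = 3) for BMDM and 99.1% ± 0.101 (SD, n = 3) for BSM, a difference of 89.1 percentage points (exact two-sided permutation p = 0.1, the smallest possible). Axl FPKM was 30.4, 10.5 and 4.56 times that of Mertk in the BMDM libraries, whereas Mertk was 115, 113 and 95.7 times Axl in the BSM libraries. By ALEXA-Seq the share of Mertk was 7.39%, 21.9% and 18.4% in BMDM and 99.3%, 99.5% and 99.2% in BSM. The BSM libraries hardly differed from each other in this share, while the BMDM libraries, with both receptors low, varied more.

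**Figure D3:**
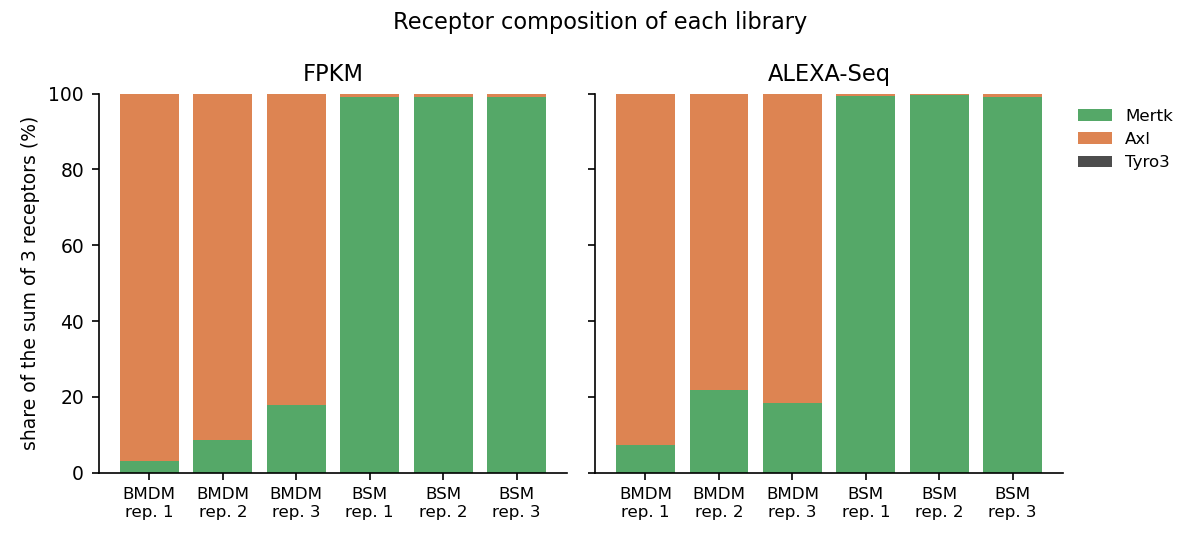
Share of Mertk, Axl and Tyro3 in the sum of the 3 receptors (y axis, percent) in each library, from FPKM (left) and ALEXA-Seq values (right). Axl fills most of every BMDM bar and Mertk more than 98% of every BSM bar, and Tyro3 is too small to be seen.

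Pros1 encodes protein S, a plasma anticoagulant that is also a ligand of Mertk and Tyro3. It lies at chr16:62854133-62929172 of mm9 (ENSMUSG00000022912). Its FPKM was 2.73, 6.66 and 2.97 in BMDM replicates 1 to 3 and 20.7, 22.7 and 25.0 in BSM replicates 1 to 3. The groups did not overlap, and BMDM replicate 2 stood above the other BMDM libraries. The BMDM mean was 4.12 ± 2.20 (SD, n = 3) and the BSM mean 22.8 ± 2.14 (SD, n = 3), a ratio of 5.54. The log2 fold change was 2.29 with a standard error of 0.32 (limma adjusted p = 0.000791), and 3.10 with quantile normalization. In ALEXA-Seq the values were 32.8, 49.6 and 33.1 in BMDM and 286, 297 and 332 in BSM, a log2 fold change of 2.98 with a standard error of 0.25 (limma adjusted p = 0.000179). Pros1 was thus the only member with several FPKM in both cell types. BMDM replicate 2 was the highest BMDM library by FPKM for every member but Tyro3, and had the highest sum of all FPKM (194184). It also had the highest granulocyte sum (328 FPKM), erythroid sum (38.5 against 6.81 and 6.91) and lymphocyte sum (3.16 against 0.210 and 0.639) of the BMDM libraries. The dendritic cell sum and the megakaryocyte and platelet sum were highest in BMDM replicate 3. The part of any of these in the levels of the members was not tested. Without BMDM replicate 2 the log2 fold change of Pros1 was 2.63 (limma adjusted p = 0.000629).

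Gas6 encodes the ligand that binds all of the TAM receptors. It lies at chr8:13465376-13494528 of mm9 (ENSMUSG00000031451). Its FPKM was 0.00981, 0.0109 and 0.00893 in BMDM replicates 1 to 3 and 4.96, 2.24 and 1.76 in BSM replicates 1 to 3. Every BSM library was above every BMDM library, and BSM replicate 1 was clearly above the other BSM libraries. The BMDM mean was 0.00989 ± 0.00100 (SD, n = 3) and the BSM mean 2.99 ± 1.73 (SD, n = 3), and the log2 fold change was 1.90 with a standard error of 0.37 (limma adjusted p = 0.00373). No ratio is given, since the BMDM values sit at the bottom of the table. Multiplied by the relative depth of each library, they came to 0.00981, 0.0101 and 0.00998, the highest 1.025 times the lowest. The depth was estimated from the lowest values of the libraries, those of Gas6 among them. The BMDM values of Gas6 fell as the estimated depth rose, which is a description.

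Gas6 passed the FPKM minimum only through BSM replicate 1, the library with very poor RNA integrity. Without that library it was not tested, and in limma over all genes above 0 its log2 fold change was then 1.57 with a standard error of 0.14 (adjusted p = 0.00329). In ALEXA-Seq the values were 0.253, 0.340 and 0.219 in BMDM and 112, 45.8 and 36.1 in BSM, a log2 fold change of 5.52 with a standard error of 0.58 (limma adjusted p = 0.000421), and 5.04 without BSM replicate 1. The same library had the highest summed FPKM of the 7 astrocyte markers, 9.54 against 5.32 and 6.91 in BSM replicates 2 and 3 and 0.259 to 0.397 in BMDM. Nearly all of that sum was Slc1a3, at 9.51, 5.18 and 6.71 FPKM in the BSM libraries, and Gfap was at 0 in every library. Among the BSM libraries, Aqp4 and Slc1a2 were lowest and Aldoc was highest in replicate 1, all at 0.144 FPKM or less. BSM replicate 1 also had the highest sum of the 6 pericyte and smooth muscle markers, 1.31 against 0.0813 and 0.0911, all of it Acta2. The part of these signals in the level of Gas6 was not tested. In GENCODE M21 the end of Gas6 overlaps the opposite-strand gene Tmem255b over 3100 bases, and that gene (listed under its older symbol Fam70b) had an FPKM of 0 in all 6 libraries.

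Mfge8 encodes the secreted bridge between phosphatidylserine and integrins. It lies at chr7:86278655-86293934 of mm9 (ENSMUSG00000030605). Its FPKM was 0.0835, 0.259 and 0.208 in BMDM replicates 1 to 3 and 0, 0.0491 and 0.0808 in BSM replicates 1 to 3. Every BMDM library lay above every BSM library, if only just for BMDM replicate 1 (exact two-sided permutation p = 0.1, the smallest possible), as for 30.0% of the 21167 genes above 0. The means of 0.184 ± 0.0903 and 0.0433 ± 0.0407 (SD, n = 3 each) were both far under the FPKM minimum. In limma over all these genes the log2 fold change was -0.18 with a standard error of 0.06 (adjusted p = 0.118), so the gene did not pass the test. The ALEXA-Seq values had the same order, 2.60, 7.29 and 5.04 in BMDM and 0, 1.53 and 2.42 in BSM (log2 fold change -1.46, standard error 0.69, limma adjusted p = 0.243).

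Between the ligands, Pros1 FPKM was above Gas6 FPKM in all 6 libraries. No ratio is given for the BMDM libraries, where Gas6 was near 0. Pros1 was 4.17, 10.2 and 14.2 times Gas6 in BSM replicates 1 to 3. Gas6 made up 19.3%, 8.96% and 6.60% of the sum of both ligands in BSM replicates 1 to 3, so its share was highest in the low-integrity library. Within BSM the order by FPKM was Mertk, Pros1, Gas6, Axl, Mfge8 and Tyro3 in every library apart from a tie of Mfge8 and Tyro3 at 0 in replicate 1. Of the neighbours in this order, Mfge8 and Tyro3 alone did not differ beyond their spread. The Mertk transcript was 2.47, 3.09 and 2.86 times that of its ligand Pros1. Within BMDM the order was Pros1, Axl, Mertk or Mfge8, Gas6 and Tyro3, and Mertk and Mfge8 there did not differ beyond their spread.

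**Figure D4:**
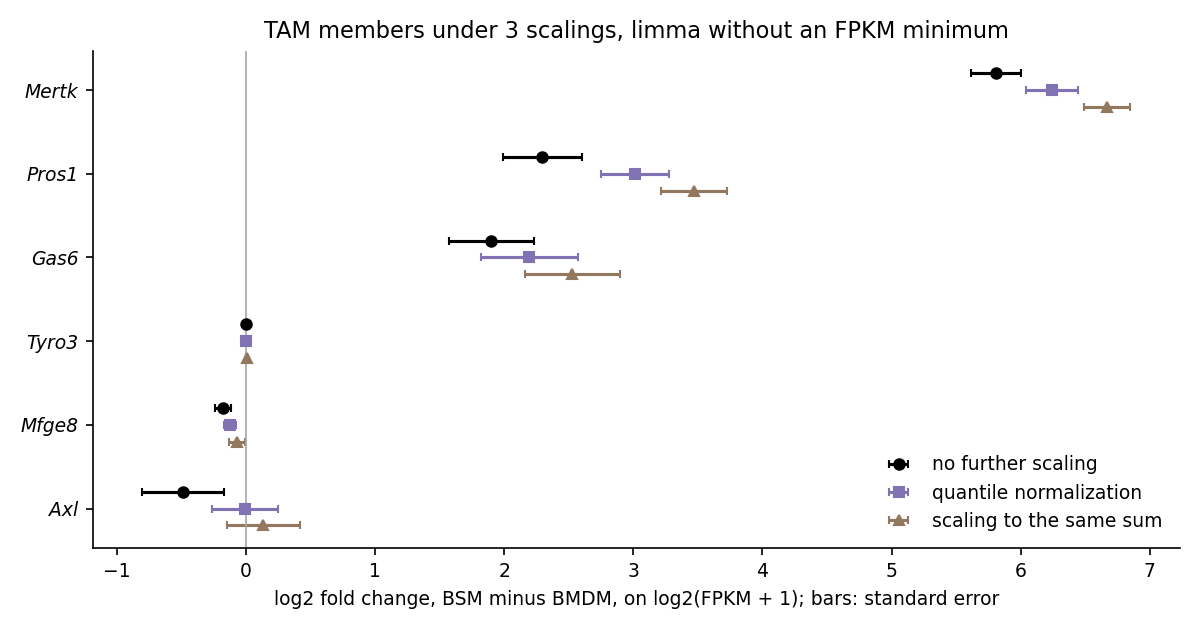
Log2 fold change (BSM minus BMDM, on log2(FPKM + 1)) of the 6 TAM genes in limma over all genes above 0, under 3 ways of scaling the libraries, with bars for the standard error. Mertk, Pros1 and Gas6 stay to the right of 0 under each scaling, Axl changes sign (-0.49, -0.01 and 0.13), and Tyro3 and Mfge8 lie near 0 because their levels are under the pseudocount.

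The rest of the pathway was followed through 9 lists with 53 genes in all, of which 23 passed the FPKM minimum. Of these 23, 5 were higher in BSM, 9 were higher in BMDM and 9 did not pass the test (limma, adjusted p under 0.05), where 9.22% of all tested genes were higher in BSM and 45.3% were higher in BMDM. The median log2 fold change of the 23 was -0.30, against -0.81 over all tested genes. The split turned with the scaling: with quantile normalization 9 were higher in BSM and 4 in BMDM, where 19.3% and 21.7% of all tested genes were called. In ALEXA-Seq 5 of 23 tested genes were higher in BSM and 7 in BMDM, against 10.9% and 37.1% of all tested genes. The directions given below for Itgav, Itgb5, Havcr2, Pik3r1 and Elmo1 (higher in BSM) and for Lgals3, Vav3, Elmo2 and Rac1 (higher in BMDM) were called with quantile normalization too. After scaling every library to the same sum those calls held for all of them but Rac1. Itgb5 reached the minimum in BSM libraries alone, and Lgals3, Vav3, Elmo2 and Cd300lf in BMDM libraries alone, so that for these a difference between the groups was built into the filter. The counts of called pathway genes, in all and by list, are therefore descriptions.

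Lgals3, a galectin that has been described as a further Mertk ligand, was at 15.8, 19.8 and 17.5 FPKM in BMDM and at 0.0215, 0.0288 and 0.0234 in BSM, a log2 fold change of -4.18 with a standard error of 0.22 (limma adjusted p = 7.5e-06). Tub was under 0.05 FPKM and Tulp1 was at 0 in all libraries, so Lgals3 was the only one of the 3 other reported Mertk ligands that was tested. Of the 4 genes for the integrins of Mfge8 and its homologue, both that were tested were higher in BSM, as were 9.22% of all tested genes. Itgav, the alpha chain, had 14.8, 7.30 and 9.89 FPKM in BMDM and 33.5, 38.6 and 45.7 in BSM (log2 fold change 1.83, standard error 0.29, limma adjusted p = 0.00154). Itgb5, one of its beta chains, had 0.461, 0.482 and 0.710 FPKM in BMDM and 14.9, 12.2 and 11.4 in BSM (3.15, standard error 0.23, limma adjusted p = 3.38e-05). The beta chain Itgb3 stayed under the minimum, at a mean of 2.42 FPKM in BMDM and 1.72 in BSM, and Edil3, the homologue of Mfge8, was under 0.1 FPKM throughout.

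Among the 4 genes that make the ligands active, only Vkorc1, which recycles vitamin K, was tested in FPKM, and its 3.90, 5.18 and 7.57 FPKM in BMDM overlapped with 2.40, 12.5 and 4.23 in BSM (log2 fold change -0.04, limma adjusted p = 0.954). Ggcx, the carboxylase that modifies Gas6 and protein S, had 0.309 ± 0.00412 FPKM in BMDM and 0.800 ± 0.478 in BSM (SD, n = 3 each), with BSM replicate 1 at 0.310 within the BMDM range. Furin and Vkorc1l1 were under 3 FPKM as well. In ALEXA-Seq Vkorc1l1, a relative of Vkorc1, was tested, and its 53.7 ± 1.24 in BMDM was above the 22.1 ± 0.656 in BSM (SD, n = 3 each; log2 fold change -1.25, standard error 0.28, limma adjusted p = 0.0110). It was not called there with quantile normalization (-0.52, limma adjusted p = 0.169). Both proteases known to shed the outer part of TAM receptors were expressed in both cell types. Adam10 had means of 12.9 FPKM in BMDM and 20.0 in BSM and Adam17 had 20.8 and 30.8. In each, every BSM library lay above every BMDM library in FPKM, as for 11.6% of all tested genes, but neither passed the test without further scaling (limma adjusted p = 0.0582 and 0.0834), and both did with quantile normalization (log2 fold change 1.37 and 1.31, limma adjusted p = 0.00191 and 0.00215). In ALEXA-Seq the groups overlapped for Adam10 (log2 fold change 0.31, limma adjusted p = 0.379) and not for Adam17 (0.64, limma adjusted p = 0.0511), and neither passed the test there without further scaling.

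Of the 15 genes for signalling close to the receptor and for engulfment, 10 were tested, with 2 higher in BSM, 6 higher in BMDM and 2 not called. Over all tested genes 9.22% were called higher in BSM and 45.3% higher in BMDM. With quantile normalization 3 of the 10 were higher in BSM, 3 higher in BMDM and 4 not called, where the shares were 19.3% and 21.7%. Elmo1, an adaptor of the Rac activator Dock1, had means of 5.83 FPKM in BMDM and 11.9 in BSM (log2 fold change 0.94, limma adjusted p = 0.0138). Its relative Elmo2 had the opposite pattern, with 6.05 in BMDM and 0.696 in BSM (-2.09, limma adjusted p = 0.000727). Pik3r1, the regulatory subunit of phosphoinositide 3-kinase, was higher in BSM (7.64 and 14.3 FPKM, log2 fold change 0.83, limma adjusted p = 0.0178). Vav3, a guanine nucleotide exchange factor, had 9.28, 7.06 and 9.49 FPKM in BMDM and 0, 0.0552 and 0.0650 in BSM (-3.20, standard error 0.24, limma adjusted p = 3.96e-05). Its relative Vav1 had means of 10.1 and 8.99 FPKM and overlapped, although it was called higher in BSM with quantile normalization (log2 fold change 0.62, limma adjusted p = 0.0455). Rac1, the GTPase that drives the engulfing cup, had 92.0 ± 6.91 FPKM in BMDM and 34.7 ± 3.55 in BSM (SD, n = 3 each; -1.38, limma adjusted p = 0.00114), a call that was lost after scaling to the same sum (-0.09, limma adjusted p = 0.715). Rhog (-1.27), Plcg2 (-1.23) and Crk (-0.93) were also higher in BMDM without further scaling but did not pass the test with quantile normalization (limma adjusted p = 0.242, 0.0955 and 0.746). In ALEXA-Seq without further scaling Rhog and Plcg2 were called higher in BMDM, and Crk was not called (-0.77, limma adjusted p = 0.0979).

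**Figure D5:**
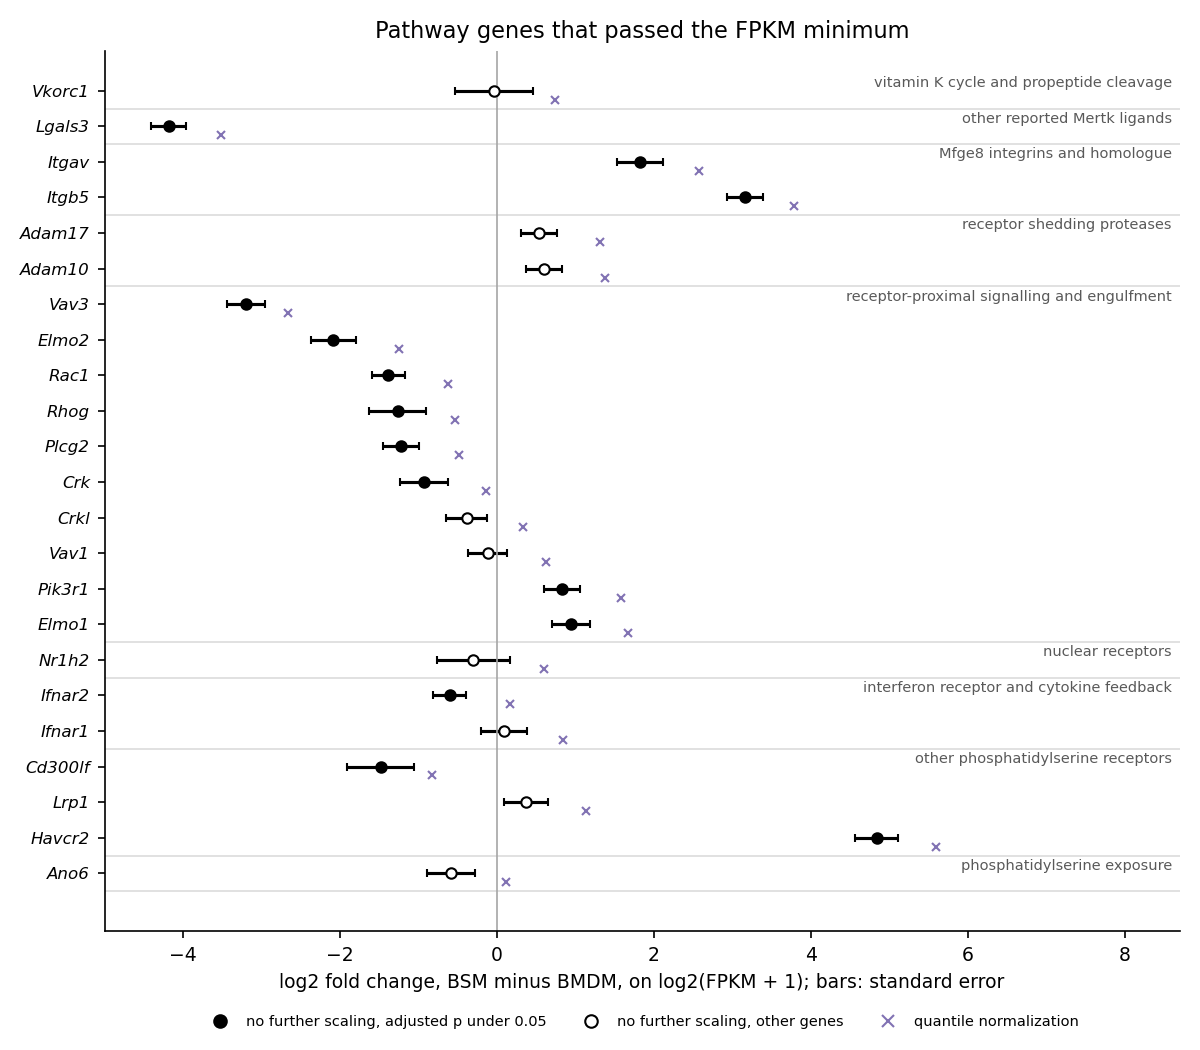
Log2 fold change (x axis, BSM minus BMDM, on log2(FPKM + 1)) of the 23 pathway genes that passed the FPKM minimum, grouped by list, with bars for the standard error. Filled circles passed limma at an adjusted p under 0.05 without further scaling, open circles did not, and crosses give the value with quantile normalization, which lay to the right for every gene shown.

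TAM signalling is known to act through the interferon receptor to induce Socs genes, and of that list 2 of 6 genes were tested, with calls that turned on the scaling. The receptor chain Ifnar2 was higher in BMDM without further scaling (90.3 and 59.2 FPKM, -0.60, limma adjusted p = 0.0400) but not with quantile normalization (0.16, limma adjusted p = 0.568). After scaling to the same sum Ifnar2 was called higher in BSM (0.70, limma adjusted p = 0.0280). In ALEXA-Seq without further scaling it was not called (-0.51, limma adjusted p = 0.0787). Ifnar1 overlapped (9.68 and 10.5 FPKM) and was not called without further scaling, but was higher in BSM after scaling to the same sum (1.29, limma adjusted p = 0.0169). Socs3, a feedback inhibitor of cytokine receptors, was under the minimum at 0.0154, 0.0120 and 0.0219 FPKM in BMDM and 0.700, 0.925 and 0.752 in BSM. Socs3 was thus low everywhere, with every BSM library above every BMDM library, as for 1550 of the 21167 genes above 0. Socs1 was under 0.03 FPKM, and Twist1 and Twist2 were at 0 in all libraries.

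Liver X receptors are known to raise Mertk transcription in macrophages. Of the 6 nuclear receptor genes only Nr1h2, which encodes the beta form, was tested, with 2.62, 4.81 and 3.69 FPKM in BMDM and 0.793, 4.97 and 3.93 in BSM (log2 fold change -0.30, limma adjusted p = 0.600). Nr1h3, the alpha form, was at most 0.0521 FPKM in any library. Pparg had 0.938, 0.777 and 1.29 FPKM in BMDM and was at 0, 0 and 0.0252 in BSM. Every BMDM library thus lay above every BSM library, as for 30.0% of the 21167 genes above 0. Rxra had the same order (means 1.85 FPKM in BMDM and 0.922 in BSM), and Rxrb and Ppard overlapped.

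Of 9 other receptors for phosphatidylserine, 3 were tested in FPKM, with 1 higher in BSM, 1 higher in BMDM and 1 not called. The shares over all tested genes were 9.22% and 45.3%. With quantile normalization 2 were higher in BSM and 0 in BMDM, where the shares were 19.3% and 21.7%. In ALEXA-Seq 2 were tested, with 1 higher in BSM and 0 higher in BMDM, where the shares were 10.9% and 37.1%. Havcr2, which encodes Tim-3, had 4.01, 2.42 and 2.82 FPKM in BMDM and 137, 125 and 87.3 in BSM (log2 fold change 4.84, standard error 0.27, limma adjusted p = 9.59e-06). Its FPKM was above that of Mertk in each BSM library. Cd300lf was higher in BMDM without further scaling (means 3.17 and 0.415 FPKM, -1.48, limma adjusted p = 0.0210) but not with quantile normalization (limma adjusted p = 0.137). Lrp1 had means of 7.24 and 9.76 FPKM and overlapped, but was called higher in BSM with quantile normalization (1.13, limma adjusted p = 0.0170). Of the 6 that were not tested, Stab1 had 0.00695, 0 and 0.00433 FPKM in BMDM and 0.588, 1.00 and 0.864 in BSM, Bai1 was at 0 in all libraries, and Timd4, Havcr1, Stab2 and Megf10 stayed under 0.3 FPKM. Among the 4 genes for exposing phosphatidylserine, the scramblase Ano6 overlapped (means 7.26 and 4.45 FPKM, limma adjusted p = 0.139), Xkr8 and Plscr1 were under the minimum and Xkr4 was at 0.

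The genes most like each tested member were found by Euclidean distance over the log2(FPKM + 1) of the 6 libraries, among the 6363 other tested genes, and are given as a description. For Mertk they were Olfml3 (distance 0.63), Rasgrp3 (0.68), Csmd3 (0.73), Slco2b1 (0.81) and Siglech (0.85). Their mean FPKM in BSM was 65.5, 66.5, 51.8, 52.9 and 86.2, against 64.3 for Mertk, and at most 0.384 in BMDM. Of these, Olfml3 was also among the microglia markers, and its lowest BSM library was replicate 3, whereas that of Mertk was replicate 1. For Pros1 they were Hist1h1d (0.63), Frmd4b (0.88) and Bmp2k (0.88), all with a few FPKM in BMDM and 20.2 to 28.6 in BSM. For Gas6 they were Tspan18 (0.11), Rhobtb1 (0.27) and A2bp1 (0.37), each of them highest in BSM replicate 1 with 4.91, 4.69 and 4.60 FPKM. Such a shared pattern is what the distance selects.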

How the data were processed

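Groups, replicate numbers, sex and age were taken from the sample labels. The members and the gene lists were chosen with earlier results of these data known. The authors amplified RNA with the Ovation RNA-Seq method and deposited FPKM for each gene. The submitters' processing notes name CASAVA 1.7.0, TopHat 1.3.1, Bowtie 0.12.7, Cufflinks 1.0.3 and the build mm9, and FPKM is scaled by transcript length and mapped reads. They also deposited an ALEXA-Seq expression signal, linear, with a normalization not given in the sources used here. Neither table holds read counts, so the reads behind a value are not listed and no interval for counting error was computed. The study lists mapped reads for each library as a whole.

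No further scaling was applied. For the 6364 genes that reached 3 FPKM in 1 or more libraries, log2(FPKM + 1) was compared with limma 3.58.1 in R 4.3.3 (empirical Bayes with a mean-variance trend, Benjamini-Hochberg adjustment over all of these genes, threshold 0.05). As many ALEXA-Seq entries, by highest value in any library (37.4 or more), were tested likewise on log2(value + 1). Members under the minimum were read from a fit over every gene above 0. A gene that did not pass the test is not thereby shown to have had the same level in both groups. Shares were compared by an exact two-sided permutation test, which cannot give a p under 0.1 with 3 libraries against 3. P-values set a difference between the groups against the spread between libraries, each from its own pool of mice. Sex and RNA integrity also differed between libraries of a group and are part of that spread. Same-numbered libraries were not paired (see the closing section). Scripts used Python 3.11.15, pandas 2.3.3, numpy 2.4.6, scipy 1.17.1 and matplotlib 3.10.9.

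Gene positions are those of the files (mm9), counted from 1. Promoters are RefSeq, GRCm38.p6, and overlaps and transcripts are GENCODE M21, used by symbol and never mixed with mm9 positions. By blastn 2.17.0 no member's longest transcript matched another gene over 100 bases at 95% identity or more. Named genes were all members, the listed pathway genes with the largest and smallest called changes in a list or that define a step, the nearest genes (5 for Mertk, 3 for Pros1 and Gas6) and the marker genes. The marker lists not given in the report (oligodendrocyte, endothelial, perivascular macrophage) summed to at most 12.8 FPKM in any library. A few listed genes are not reported here and were left out of all list counts and sums. Alternatives were a pseudocount of 0.1, a minimum FPKM of 1 or none, other scalings, no trend, library quality weights, a replicate block and leaving out each library.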

Additional observations from a re-analysis of the deposited data

How the results depend on the processing

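In each alternative that tested them, Mertk, Pros1 and Gas6 were called higher in BSM by limma. Mertk and Gas6 reached the FPKM minimum only through BSM libraries, so in fits with a minimum a difference was built into their selection. The log2 fold change ranged from 5.73 to 8.10 (Mertk), 2.11 to 3.47 (Pros1) and 1.57 to 4.67 (Gas6) in FPKM and from 8.11 to 9.36, 2.88 to 3.79 and 5.03 to 7.28 in ALEXA-Seq. Leaving out each library in turn gave 2 to 3 members called in FPKM and 3 in ALEXA-Seq, the 2 being without BSM replicate 1, where Gas6 fell under the minimum. The female libraries alone also gave 2 in FPKM. The difference in the share of Mertk was 85.7 to 93.1 percentage points with each library left out, 83.4 by ALEXA-Seq and 89.1 with Mertk and Axl alone.

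The pathway counts moved with the scaling, as did the counts over all 6364 tested genes. Without further scaling, 587 of all tested genes were called higher in BSM and 2883 higher in BMDM in FPKM. These became 1227 and 1378 with quantile normalization, 1010 and 1394 with upper quartile scaling, and 1585 and 968 after scaling to the same sum. With library quality weights they were 881 and 3822. In ALEXA-Seq they were 691 and 2359, and 1349 and 1439 with quantile normalization. In FPKM, the 5 genes higher in BSM became 9 with quantile normalization, 8 with upper quartile scaling, 11 after scaling to the same sum and 8 with library quality weights, and 4 to 6 with 1 library left out. The 9 genes higher in BMDM became 4, 4 and 3 under the 3 scalings, 11 with library quality weights and 12 with a minimum of 1 FPKM, and 5 to 11 with 1 library left out (5 without BMDM replicate 2 or 3). In ALEXA-Seq, quantile normalization gave 9 higher in BSM in place of 5 and 3 higher in BMDM in place of 7, with 5 to 6 and 4 to 10 when 1 library was left out (4 without BMDM replicate 3), and the female libraries alone gave 11 higher in BMDM. Over all genes, the minimum of 1 FPKM gave 738 higher in BSM and 3585 higher in BMDM among 9637 tested. The female libraries alone gave 3358 of 6364 ALEXA-Seq entries higher in BMDM. The cause was not tested.

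Same-numbered libraries shared a number and a sex, and deviated together with correlations of -0.02, -0.01 and 0.13 for replicates 1 to 3. With the replicate block 3 members were called in each table, 5 pathway genes were higher in BSM and 8 in BMDM in FPKM (Ifnar2 at a limma adjusted p of 0.0696 no longer among them; 5 and 7 in ALEXA-Seq), and the calls over all genes were 3471 against 3470 without the block. The reads behind a value are not listed, so a level near 0, as of Tyro3, Mfge8 or of Gas6 in BMDM, was given no counting error.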
